A study of Mus musculus with 144 samples.

Results

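Rod phototransduction transcripts were examined in single sorted retinal microglia. They are represented by 9 genes, Gnat1, Gngt1, Pde6b, Pde6g, Sag, Pdc, Prph2, Rom1 and Nrl, of 55364 in the deposited table. The genes were chosen by their known rod photoreceptor roles together with earlier values of these same cells, in which rod transcripts were more abundant after ripasudil. Their levels by group are therefore a description, with no test. Each gene name matched 1 row of the table, so all 9 were measured.

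Rods are the photoreceptors of dim light and the most numerous neurons of the mouse retina. In the outer segment, light-activated visual pigment switches on the G protein transducin, which releases the inhibition of a phosphodiesterase; cyclic GMP then falls and the cyclic nucleotide-gated channels close. Arrestin and phosducin limit the response, disc rim proteins shape the stacked membranes, and the transcription factor NRL directs rod gene expression. Microglia are the resident macrophages of the retina and are not known as a source of these proteins. They do take up photoreceptor debris and, in retinal disease, living rods.

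The cells came from Iba1-EGFP mice, in which Iba1-positive cells, microglia and other macrophages, carry a green fluorescent protein, and were sorted by flow cytometry with 1 library per cell. The groups were PBS (the vehicle, mice of 10 to 14 weeks), ripasudil at 1 mg/kg (14 weeks, here the low dose) and ripasudil at 10 mg/kg (12 weeks, the high dose), with 48 cells each, 16 on each of 3 plates. Ripasudil inhibits the kinases ROCK1 and ROCK2. All groups share the reporter; the series title speaks of optic nerve injury, but the sample labels do not say whether these eyes were injured. No animal is named, so each group counts as 1 sample, the number of mice behind it is unknown, and no difference has a replicate check. Age and well block differ between groups and cannot be told apart from dose.

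Of 144 cells, 140 were kept because 1000 or more genes reached an FPKM of 1 in them. FPKM is expression per kilobase of gene, scaled to the assigned reads of the cell. The kept cells were 46 from PBS mice, 47 from the low dose and 47 from the high dose. The cells left out had 876 to 939 genes and the kept cell nearest to the limit had 1006. The assigned reads of a cell ranged from 30204 to 4668730 (median 1614850), and the median gene number of the kept cells was 3143, 2418 and 2264 in the same order of groups. Csf1r, which encodes a growth factor receptor that microglia depend on, was at an FPKM of 1 or more in all 140 kept cells. Other microglial genes were not in every cell: of 18 listed, a kept cell held between 9 and 18.

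The 9 genes lie on 8 chromosomes of GRCm38, with Sag and Pdc both on chromosome 1. GENCODE M21 places Gnat1 (ENSMUSG00000034837) at chr9:107674474-107679712 and Gngt1 (ENSMUSG00000029663) at chr6:3993792-3997436, Pde6b (ENSMUSG00000029491) at chr5:108388391-108432397 and Pde6g (ENSMUSG00000025386) at chr11:120447605-120453500. It places Sag (ENSMUSG00000056055) at chr1:87803680-87845158 and Pdc (ENSMUSG00000006007) at chr1:150319417-150333906, Prph2 (ENSMUSG00000023978) at chr17:46910459-46924933 and Rom1 (ENSMUSG00000071648) at chr19:8927391-8929356, and Nrl (ENSMUSG00000040632) at chr14:55518978-55524981. The values cover all annotated exons of each gene. In the RefSeq promoter table of build GRCm38.p6, 7 of the 9 were matched. As these genes were found together in some cells, their promoters were searched for the letters GGATTA, a core bound by photoreceptor homeodomain factors of the CRX type, and TGCTGA, a core of the NRL recognition element, on both strands over the 250 bases before the start. GGATTA was in 2 of the 7 member windows, 87 bases before the start in Sag and 44 in Gngt1, and in 6.25% of all 32851 windows of the table. TGCTGA was in 2 of 7, at 187 bases in Sag and 8 in Pde6b, and in 16.1% of all windows. The sequences of Sag, Pde6b and Rom1 are shown as examples with 2, 1 and 0 matches, 5′ to 3′ on the strand of the gene, with matches in capitals. A match is a description of letters only.
Sag, chr1:87803430-87803679, plus strand: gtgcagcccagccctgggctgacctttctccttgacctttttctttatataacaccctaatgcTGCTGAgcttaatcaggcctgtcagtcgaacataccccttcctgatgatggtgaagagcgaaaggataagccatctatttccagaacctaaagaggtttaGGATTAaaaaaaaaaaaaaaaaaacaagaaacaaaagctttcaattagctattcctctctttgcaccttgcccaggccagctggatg
Pde6b, chr5:108388123-108388372, plus strand: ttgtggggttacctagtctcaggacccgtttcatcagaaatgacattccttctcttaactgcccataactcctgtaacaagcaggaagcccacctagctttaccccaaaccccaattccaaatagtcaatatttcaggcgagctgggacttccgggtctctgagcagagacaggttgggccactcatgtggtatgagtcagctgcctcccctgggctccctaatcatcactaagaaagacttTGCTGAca
Rom1, chr19:8929357-8929606, minus strand: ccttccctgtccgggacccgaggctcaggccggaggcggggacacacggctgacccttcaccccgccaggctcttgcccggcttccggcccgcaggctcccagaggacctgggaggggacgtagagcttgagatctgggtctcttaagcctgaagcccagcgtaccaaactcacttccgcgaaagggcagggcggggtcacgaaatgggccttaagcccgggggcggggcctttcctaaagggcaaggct

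Rod transcripts were close to 0 in the typical cell of each group and very high in a few cells of the dosed groups. The summed FPKM of the 9 genes had a lowest value of 0 in each group, and the medians were 0.482 for PBS, 0.504 for the low dose and 1.51 for the high dose. The highest values were 75.8, 4848 and 14050 in the same order of groups. The medians thus differed little beside the highest values. Means were 5.85 ± 13.7 FPKM in PBS cells (SD over 46 cells), 214 ± 948 in low-dose cells and 865 ± 2613 in high-dose cells (47 each). The 3 highest cells held 55.4%, 97.4% and 69.3% of these sums.

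A sum of 100 or more was reached by 13 cells. They were 0 of 46 PBS cells, which allow a share of up to 6.52% by a limit of 3 cells and of 7.71% by the Clopper-Pearson interval, 4 of 47 low-dose cells (8.51%, with 2.37 to 20.4 as the 95% binomial interval of Clopper and Pearson) and 9 of 47 high-dose cells (19.1%, 9.15 to 33.3). Intervals cover counting error only. By plate the high-dose cells above 100 numbered 4, 3 and 2 and the low-dose cells 1, 1 and 2, with none among PBS cells on any plate. Without plate 1 the count at the high dose was 5, and without plate 3 that at the low dose was 2. Only 4 cells lay between 50 and 200, 1 of them inside the cut (167 in a low-dose cell) and 3 outside it, the nearest at 97.2 in a high-dose cell.

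**Figure D1:**
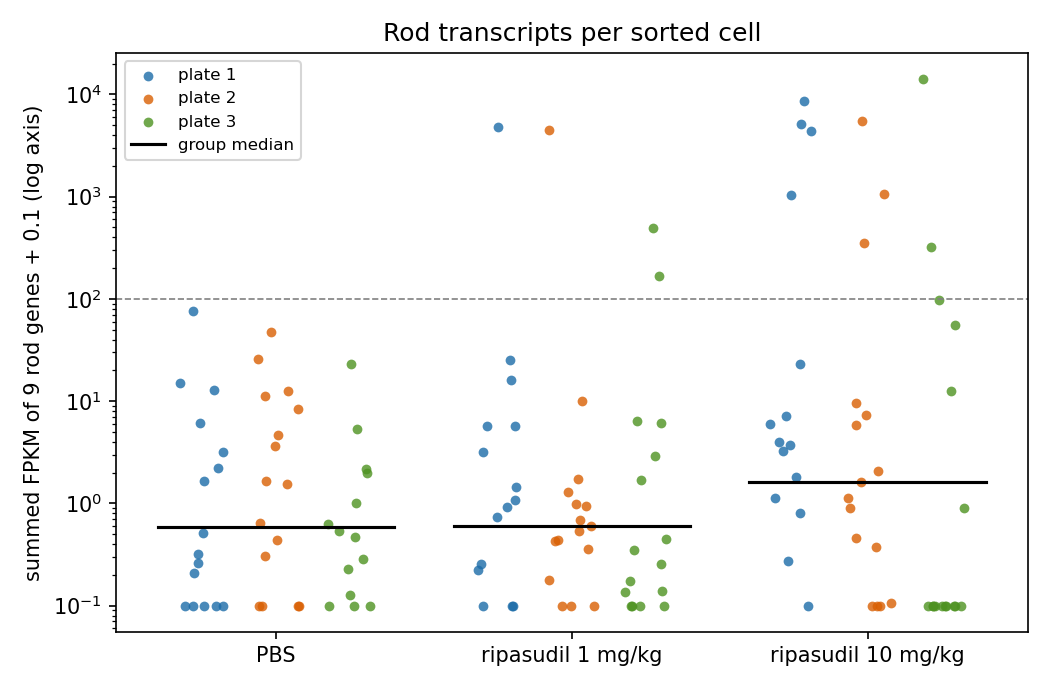
Summed FPKM of the 9 rod genes plus 0.1 (log axis) in each of the 140 kept cells, by group and coloured by plate, with group medians as black bars and the limit of 100 as a dashed line. The 13 cells above the line are 4 low-dose and 9 high-dose cells, and the PBS cells end at 75.8.

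The looser count of cells with 3 or more of the 9 genes at a level of at least 1 FPKM separated the groups less. It was 6 of 46 PBS cells (13.04%, 4.94 to 26.3), 7 of 47 low-dose cells (14.9%, 6.20 to 28.3) and 10 of 47 high-dose cells (21.3%, 10.7 to 35.7). Without plate 1 these counts were 3, 3 and 6, and without plate 2 they were 3, 6 and 6. In a shallow library a single read can give an FPKM of 1, so cells were also thinned to 300000 reads and counted with a read of at least 3 genes. That gave 6 of 41 PBS cells, 7 of 46 at the low dose and 13 of 44 at the high dose, with 5, 1 and 3 shallower cells left out. Unthinned, at any FPKM above 0, the numbers were 22, 21 and 25. At least 1 of the 9 genes had a read in 73.9% of PBS, 78.7% of low-dose and 70.2% of high-dose cells.

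Gnat1, the rod transducin alpha subunit, was the member found in the most cells. It was at an FPKM of 1 or more in 10 PBS, 10 low-dose and 13 high-dose cells. Its levels ran from 0 over a median of 0.189 to 18.9 FPKM in PBS cells, from 0 over 0.155 to 2450 in low-dose cells and from 0 over 0.197 to 4346 in high-dose cells. Values of 100 or more occurred in 0, 2 and 7 cells of these groups, so most cells overlapped in level between the groups, which parted only at the top. Gngt1, the transducin gamma subunit, was at 1 or more in 4 PBS, 3 low-dose and 8 high-dose cells. Its highest values were 6.53, 237 and 1158 FPKM, and its medians were 0.

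Of the phosphodiesterase genes, Pde6b encodes a catalytic subunit of the rod enzyme and was found in 4 PBS, 3 low-dose and 4 high-dose cells. Its highest values were 22.1, 377 and 936 FPKM. Pde6g encodes its inhibitory gamma subunit and was found in 4 PBS, 8 low-dose and 6 high-dose cells. Its highest values were 15.3, 1232 and 2909. The highest values of both genes stood in dose order, and their numbers of cells did not. The 3 highest cells held 99.8% of both Pde6b and Pde6g in the high-dose group.

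Among the regulators, Sag, the rod arrestin, was at 1 or more in 7 PBS, 5 low-dose and 7 high-dose cells. Its highest values were 6.66, 222 and 803 FPKM. Pdc, which encodes phosducin, a protein that binds transducin beta-gamma, was found in 2, 4 and 5 cells, with highest values of 3.43, 289 and 1405 FPKM. The highest PBS value of Pdc was 1 read in the cell A5 of plate 1, a shallow library of 87121 reads. The same cell held the highest PBS values of Gnat1, Gngt1 and Pde6g, from 5, 2 and 3.08 reads. Pdc overlaps an antisense gene and a further gene model in GENCODE M21, so its reads are of uncertain origin where the use of strand in counting is unknown.

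The disc rim genes differed between the doses. Prph2, the tetraspanin peripherin 2, was at 1 or more in 9 PBS, 4 low-dose and 12 high-dose cells. Its highest values were 47.6, 483 and 2384 FPKM. Rom1, its partner at the rim, was found in 4, 4 and 8 cells, with highest values of 3.21, 105 and 2169 FPKM. Its highest cell held 33.2% of all Rom1 in the PBS group, 90.0% in the low-dose group and 45.5% in the high-dose group. Nrl, the rod transcription factor, was at 1 FPKM or more in 0 of 46 PBS, 4 low-dose and 5 high-dose cells. The Clopper-Pearson limit for the PBS share is 7.71%, and 3 PBS cells held it at lower levels. Its highest values were 0.144, 38.9 and 122 FPKM, and it was at 100 or more in 1 cell only. The counts of cells depend on depth. In the low-dose cell D1 of plate 2 (3.46 FPKM, 50760 reads) and the high-dose cell H1 of plate 1 (1.94 FPKM, 90617 reads) Nrl was a single read. The PBS cell A6 of plate 2 stood at 0.144 FPKM with 2 reads of Nrl among 2440910.

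In mean log2(FPKM + 1), all 9 genes had higher means in high-dose than in PBS cells. For the summed FPKM the mean log2(FPKM + 1) was 3.25 ± 4.28 in high-dose and 1.43 ± 1.72 in PBS cells (SD over cells), a difference of 1.82, with 3.09, 1.01 and 1.49 on plates 1, 2 and 3. The differences of the single genes ran from 0.37 for Nrl to 1.32 for Gnat1, and Prph2 (1.18) and Gngt1 (1.04) followed. A difference of at least 0.5 was reached by 7 of the 9, and by 1.17% of the 13758 genes tested, those that reached an FPKM of 1 in 5% or more of the cells of some group. This contrast helped choose the genes, so nothing is read from that count. In PBS cells themselves only 7 of the 9 reached that 5%, Pdc and Nrl being the others.

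Between low-dose and PBS cells the summed FPKM differed less. Its mean log2 was 1.75 ± 2.91 in low-dose cells and 1.43 ± 1.72 in PBS cells, a difference of 0.31, and the plates gave 0.74, -0.41 and 0.70. The single genes lay between 0.00065 for Prph2 and 0.50 for Pde6g, the only member past 0.5, against 2.99% of all genes tested. High-dose minus low-dose cells gave 1.5 for the sum, with 2.35, 1.42 and 0.79 by plate. There 5 of the 9 genes passed 0.5 (Gnat1, Prph2, Sag, Rom1 and Gngt1), against 2.3% of all genes, and Pde6g stood at 0.0014. Both comparisons with PBS share the same PBS cells.

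Means on the linear scale gave a coarser picture. The mean FPKM was at least 2 times higher for 9 of 9 genes in high-dose than in PBS cells, for 9 of 9 in low-dose than in PBS cells, and for 8 of 9 in high-dose than in low-dose cells. The same was true of 21.8%, 23.4% and 24.1% of all genes tested.

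The 13 cells above 100 were also left out. All of them were dosed cells and they were picked by the same sum, so leaving them out had to lower the dosed groups against PBS, and nothing is read from the result. In the other 127 cells the summed FPKM differed by -0.060 on the log2 scale between high-dose and PBS cells and by -0.47 between low-dose and PBS cells, both below 0. The difference between high-dose and low-dose cells was 0.41 there. Of the 9 genes, 7 were lower in high-dose than in PBS cells and 7 in low-dose than in PBS cells, over ranges of -0.26 to 0.20 and -0.38 to 0.057. With all cells, 75.01% and 61.19% of the 13758 genes tested were lower in these comparisons. These alternatives were chosen after seeing the data.

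The 13 cells held the 9 genes in very unequal proportions. In 6 of them, 4 high-dose and 2 low-dose cells, at least 4 genes were at 100 FPKM or more. In 3 others 2 genes were, and in 4 cells 1 gene alone. No kept cell had exactly 3.

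The highest cell, in well F5 of plate 3 at the high dose, had all 9 genes at an FPKM of 1 or more, as did 1 other cell, the low-dose cell C5 of plate 2. F5 held Gnat1 at 4048, Pde6g at 2909, Rom1 at 2169, Pdc at 1405, Gngt1 at 1039, Pde6b at 936, Sag at 803, Prph2 at 735 and Nrl at 5.67 FPKM. These 9 genes took 4.47% of its assigned reads. The next cell, G4 of plate 1, also at the high dose, held 8 of the 9, from 3058 FPKM of Gnat1 to 184 of Pde6g, but no Nrl.

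Some of these cells lacked whole genes at good depth. The high-dose cell G5 of plate 1 held Prph2 at 2384, Gngt1 at 1158, Gnat1 at 976 and Sag at 589 FPKM, and each of Pdc, Pde6b, Pde6g, Rom1 and Nrl was at 0 among 1375350 assigned reads. The low-dose cell C5 of plate 1 held Gnat1 at 2450 and Pde6g at 1232 FPKM but Prph2 at 0.873 and Rom1 at 0.691. The low-dose cell C5 of plate 2, with all 9 genes, was led by Gnat1 at 2356 and held Nrl at 22.3. The high-dose cell G5 of plate 2 held 8 genes and no Pdc, and its Nrl, 122 FPKM, was the highest of all cells.

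**Figure D2:**
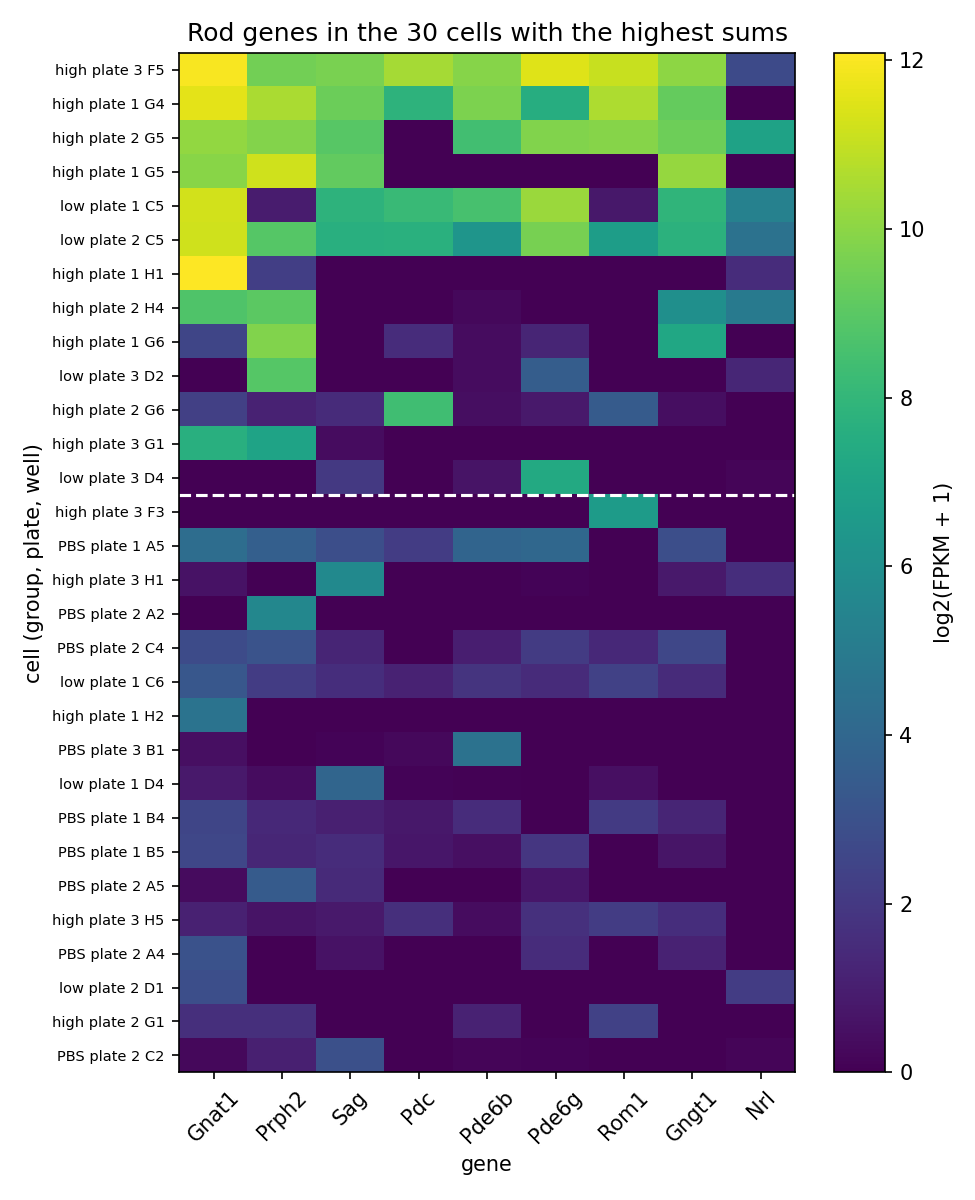
Log2(FPKM + 1) of the 9 rod genes (columns) in the 30 kept cells with the highest sums (rows, by group, plate and well), with a dashed line below the 13 cells at a sum of 100 or more. The 6 upper rows hold at least 4 genes at high levels, the next 7 mainly 1 or 2, and several rows below the line hold many genes at low levels.

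In the remaining 7 cells 1 or 2 genes made up nearly everything. Gnat1 was 99.9% of the sum in the high-dose cell H1 of plate 1, at 4346 FPKM and 1193 reads. Prph2 was 97.4% in the low-dose cell D2 of plate 3 (483 FPKM), Pde6g 97.8% in the low-dose cell D4 of plate 3 (163 FPKM) and Pdc 94.7% in the high-dose cell G6 of plate 2 (332 FPKM). Each of these genes was thus abundant in a cell with few or no reads of the others.

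Over the 13 cells Gnat1 was the highest of the 9 genes in 7, Prph2 in 4, and Pdc and Pde6g in 1 each. The median share of the sum was 28.8% for Gnat1 (range 0.0 to 99.9) and 16.6% for Prph2 (0.0 to 97.4). Within the 6 cells with at least 4 genes the shares were narrower for some genes than for others. Sag made up 4.43 to 11.5%, Gngt1 4.89 to 22.7% and Gnat1 19.1 to 53.1%, and all 3 were at 100 FPKM or more in each of the 6. Prph2 ranged from 0.018 to 46.7%. As the length used for FPKM is the union of all annotated exons, 8904 bases for Sag and 3515 for Gngt1, values of genes with long rare exons are set too low, and the order between genes depends on that length.

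**Figure D3:**
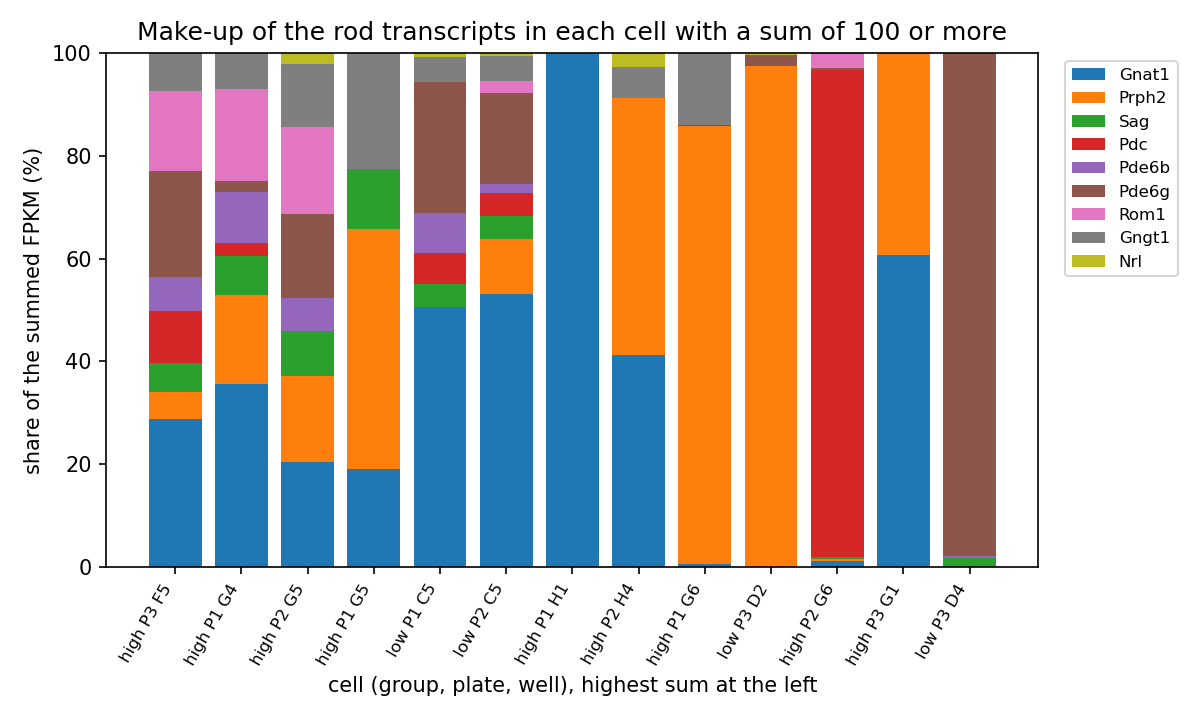
Share (%) of each of the 9 rod genes in the summed FPKM of each of the 13 cells with a sum of 100 or more, ordered by sum, the highest at the left. The 6 bars on the left mix at least 4 genes, while Gnat1, Prph2, Pdc or Pde6g fills nearly the whole bar in several cells on the right.

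Below the 13 cells, low levels were spread over many cells. A sum above 0 and under 20 FPKM was found in 30 PBS, 32 low-dose and 21 high-dose cells, and a sum of exactly 0 in 12, 10 and 14. Across the cells under 20, those at 0 included, the median was 2.29, 2.0 and 2.0 reads in all 9 genes together. Of all values above 0 and under 30 reads, 88.9% were whole reads within 0.01 read. Gnat1 was again the most frequent, above 0 in 62 of the 83 cells with a sum above 0 and under 20. It made up 29.4% of their pooled FPKM, with Sag at 17.7%, Prph2 at 17.7%, Rom1 at 10.9%, Pde6g at 7.99% and Nrl at 1.84%. In the 13 high cells the pooled shares were 37.8% for Gnat1, 5.88% for Sag, 15.9% for Prph2, 9.47% for Rom1, 12.3% for Pde6g and 0.442% for Nrl. The Sag share at low levels leaned on 1 low-dose cell with 387 reads.

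Some cells held many genes at such levels. The low-dose cell C6 of plate 1 had 8 of the 9 at 1.24 to 8.58 FPKM, and the PBS cells A5 of plate 1 and C4 of plate 2 had 7 each. In A5, the PBS cell with the highest sum, 75.8 FPKM came from 25.1 reads in a library of only 87121 reads. The PBS cell A2 of plate 2 was of the other kind, with 640 reads of Prph2, 47.6 FPKM, and no read of another member.

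The members varied together across cells to different degrees. Pearson's r of log2(FPKM + 1) over the 140 cells ran from 0.43 (Pdc and Nrl) to 0.89 (Pde6b and Pde6g) for the 36 pairs, with a median of 0.69. Of the 15 cells with Gngt1, 14 also held Gnat1. These values are descriptive, as the cells of a group share animals and preparation and most values are 0.

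By position, the cells above 100 lay in 5 wells of plate 1, 4 of plate 2 and 4 of plate 3. On plate 1 the high-dose wells G4, G5 and G6 lie side by side, with sums of 8598, 5107 and 1040 FPKM, and on plate 2 the high-dose well G5 (5509) touches G6 (351) by a side and H4 (1056) by a corner. The other 7 had no touching well above 100. The low-dose well C5 was above 100 on plates 1 and 2 and at 0.350 FPKM on plate 3.

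Touching wells were compared with the rest on each plate. On plate 1 the 18 cells below 100 that touch a well above 100 had a median sum of 3.74 FPKM, against 0.162 in the 23 that do not. On plate 2 the medians were 0.944 in 16 touching and 0.421 in 28 other cells, and on plate 3 they were 0.0317 in 24 and 0.169 in 18, the opposite order. Within plate 1 the 4 touching PBS cells had a median of 9.48, against 0.134 in the other 12, and the 3 touching low-dose cells 15.98, against 0.635 in the other 11. For PBS cells the medians were 3.002 in 4 touching and 1.06 in 12 other cells on plate 2, and 0.232 in 4 and 0.447 in 10 on plate 3. Low-dose cells had, in the same order, 0.640 in 4 and 0.325 in 11 on plate 2. On plate 3 they had 0.164 in 12 and 0.0957 in 2. High-dose cells had 0.921 in 8 and 0.277 in 5 on plate 2, and 0.0 in 8 and 0.0 in 6 on plate 3. The plate medians thus mix groups of unequal numbers. The make-up of touching wells did not always follow. Beside the low-dose cell C5 of plate 1, which had 5 reads of Prph2 and 2 of Rom1, the touching low-dose cell C6 had 10 and 6. The part of well position in the result was not tested.

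**Figure D4:**
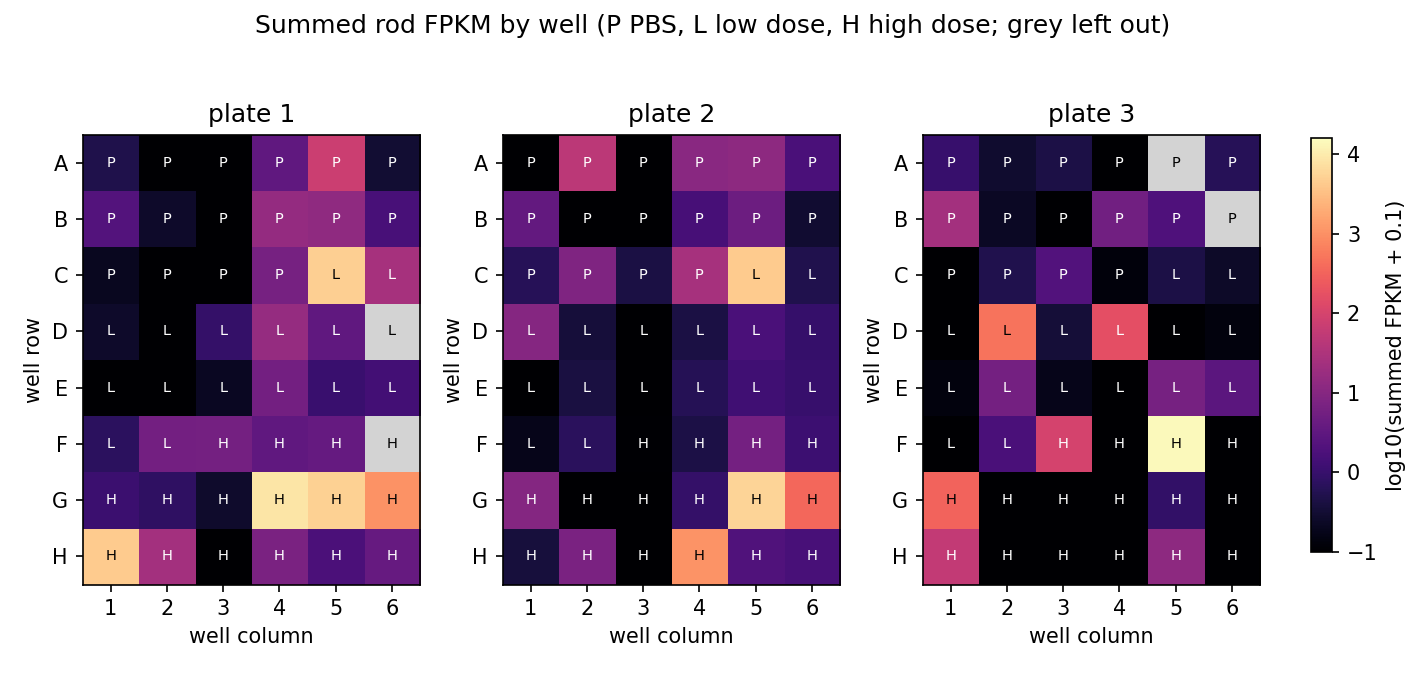
Log10 of the summed rod FPKM plus 0.1 in every well of the 3 plates (rows A to H, columns 1 to 6; P PBS, L low dose, H high dose), with wells left out in grey. Bright wells stand side by side in row G of plate 1 and in rows G and H of plate 2, and no PBS well is above 100.

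The cells with high rod sums also held microglial transcripts. Of the 18 microglial genes listed, 13 to 18 were at an FPKM of 1 or more in these 13 cells, with a median of 16, and 9 to 18 in the other 127 cells, with a median of 17. Their summed FPKM had a median of 36012 in the 13 cells (range 1229 to 84893) and of 45864 in the others (1963 to 125732). Cst3, which encodes cystatin C, had medians of 12723 and 13025 FPKM, and the complement gene C1qb 5669 and 8471. The ranges overlapped for both genes.

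Set against the microglial sum of the same cell, the rod sum was 56.5% in the high-dose cell G4 of plate 1, 40.4% in the low-dose cell D2 of plate 3 and 34.6% in the high-dose cell F5 of plate 3. It was 12.1 to 16.03% in 5 further cells and 0.447 to 3.11% in the other 5. The value of D2 came with a low microglial sum, 1229 FPKM, the lowest of all kept cells, although all 18 microglial genes were detected there. In the highest cell, F5, Csf1r was at 233 FPKM and Cst3 at 23457, while P2ry12, a purinergic receptor of resting microglia, was at 0.429. How the 2 sets of genes came to be in 1 library was not tested.

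**Figure D5:**
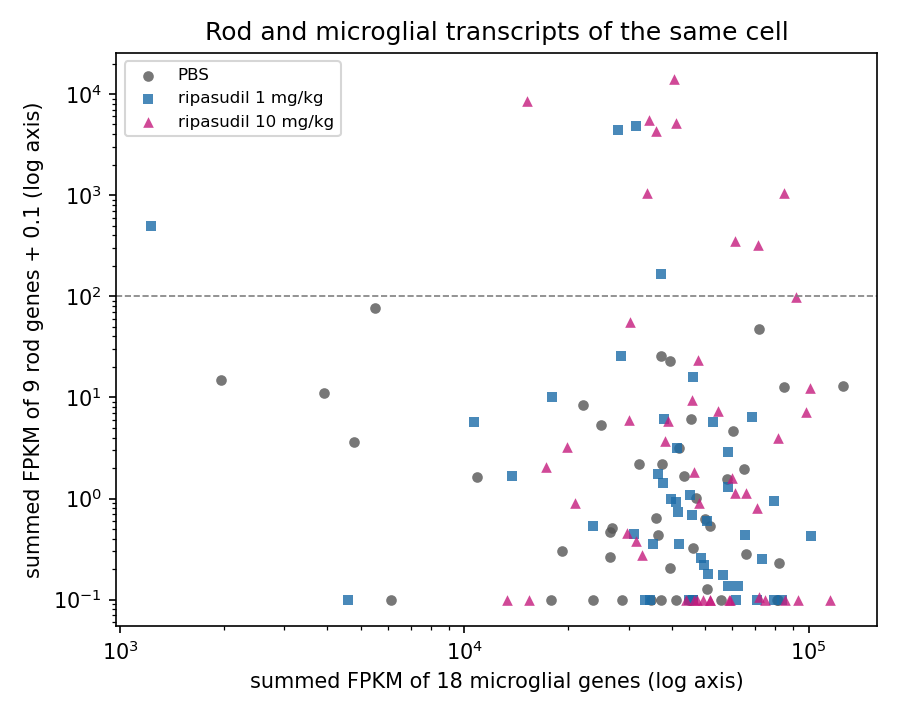
Summed FPKM of the 9 rod genes plus 0.1 against that of 18 microglial genes in each of the 140 kept cells (both axes logarithmic), by group, with the limit of 100 dashed. Cells above the line lie inside the wider range of microglial sums of cells below it (1963 to 125732), apart from the low-dose cell at 1229.

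Other rod genes were most numerous in 4 of the 13 cells. Of the 36 further rod and photoreceptor genes listed, the high-dose cells F5 of plate 3, G4 of plate 1 and G5 of plate 2 held 18, 18 and 14, and the low-dose cell C5 of plate 2 held 14. The other 9 cells above 100 held 0 to 5, and the 127 remaining cells held 0 to 9, with a median of 1. Rcvrn, the calcium sensor recoverin, was at 2777 FPKM in F5, 1843 in the high-dose cell G5 of plate 1 and 82.4 in C5 of plate 2, and at 0.0 or below 1 in the other 10. Unc119, a carrier of transducin alpha, was at 360 to 522 FPKM in 5 of the 6 cells with at least 4 members and at 0.0 in the high-dose cell G5 of plate 1. Reep6, a rod membrane-trafficking gene, was at 1080 in F5 and in 4 of the 13 cells in all. Guca1a, a guanylate cyclase activator, averaged 446 FPKM in the 13 cells and 65.1 in the other 127, and it was at 1 FPKM or more in 6 of the 13 and in 30 of the 127.

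Between groups, 31 of these 36 genes had a higher mean log2(FPKM + 1) in high-dose than in PBS cells and 3 a lower one, with a median of 0.20, beside 9 of 9 members with a median of 0.75 and a median of -0.19 over all 13758 genes tested. Between low-dose and PBS cells 24 were higher and 10 lower, with a median of 0.013, beside a median of 0.20 for the members and -0.075 for all genes. The list shares its cells with the members and is no independent evidence.

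The genes with the pattern most like the members, by Pearson's r of log2(FPKM + 1) with the mean of the 9 over the 140 cells, were Cplx4 (0.83), Reep6 (0.81), Plekhb1 (0.77), Unc119 (0.72), Vtn (0.66), Agtpbp1 (0.64), Kif1b (0.62), Neurod1 (0.62), Map1b (0.60) and Guca1b (0.60). Cplx4, a complexin of photoreceptor ribbon synapses, averaged 275 FPKM in the 13 cells and 0.218 in the others. Neurod1, a neuronal transcription factor, averaged 62.9 and 3.24. In the 127 cells below 100, where the range of the members is cut by choice, r was 0.36 for Cplx4, 0.17 for Plekhb1, 0.097 for Unc119, 0.71 for Reep6 and 0.60 for Guca1b. Each of these genes was at 1 FPKM or more in 8 to 18 cells, apart from Vtn with 7.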

How the data were processed

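The authors deposited FPKM values for every gene and cell with gene lengths in bases. The submitters' processing notes name STAR 2.7.2b, featureCounts 1.6.1 and the build GRCm38.p6 (mm10), and for trimming cutadapt 1.16, Trimmomatic 0.36 and Trim Galore 0.4.4; settings and the use of strand are not given in the sources used here. No molecular identifiers are named, so reads are not independent molecules. The product of FPKM and gene length had an equal total in all cells, so depth was recovered by taking the most frequent positive value as 1 read; a median of 53.0% of all values were whole reads within 0.01. No count model was used. Each group was 1 sample, so no p-value was computed. The members, lists and thresholds were chosen with earlier results of these data known.

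Cells were kept if 1000 or more genes reached 1 FPKM. Named genes are the 9 members, the 12 non-member genes most correlated with them (gene models, RIKEN genes and pseudogenes left out) and up to 4 genes per list by mean FPKM in the cells above 100; some genes that met these rules are not reported here, and other names were chosen after their values were seen. Calculations were tested on simulated data. Python 3.11.15, numpy 2.4.6, pandas 2.3.3, scipy 1.17.1 and matplotlib 3.10.9 were used.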

Additional observations from a re-analysis of the deposited data

How the results depend on the processing

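The number of cells with at least 3 genes depended most on the detection limit. At any FPKM above 0 it was 22, 21 and 25 in PBS, low-dose and high-dose cells, and at 10 or more it was 1, 2 and 5. With at least 2000 genes per cell it was 3 at the low and 5 at the high dose, where 5 cells had a sum of 100 or more. Leaving out a plate gave 3 to 6 PBS, 3 to 6 low-dose and 6 to 8 high-dose cells with 3 genes, and 2 to 3 low-dose and 5 to 7 high-dose cells with a sum of 100 or more. That sum was reached by 1 PBS cell at a limit of 50 and by 1 after rescaling each cell to a total of 1000000. The log2 ratio of mean sums was 5.19 for the low dose and 7.21 for the high dose over PBS. Without the cells above 100, all of them dosed cells, the dosed groups had to become lower. The cells with 3 genes were then 6 PBS, 4 low-dose and 2 high-dose cells. The differences of the sum were -0.47 for low dose minus PBS, -0.060 for high dose minus PBS and 0.41 for high minus low dose. High dose minus PBS then turned to -0.24 for Gnat1, -0.26 for Prph2, -0.018 for Sag, -0.057 for Pdc, -0.12 for Pde6g and -0.037 for Gngt1, and it was -0.19 for Pde6b. Low dose minus PBS turned to -0.14 for Pde6g, -0.11 for Gnat1, -0.38 for Prph2, -0.15 for Sag, -0.080 for Pdc, -0.20 for Pde6b and -0.16 for Gngt1, and high minus low dose to -0.13 for Gnat1 and -0.022 for Nrl. With plate as a replicate block the differences were 1.86, 0.34 and 1.52 for high dose minus PBS, low dose minus PBS and high minus low dose, close to the pooled values; plates are shared by all groups, and cells on them are not paired. Depth limits the low levels: the cells with a sum under 20, those at 0 included, had a median of 2.0 reads.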

Other observations

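Genes listed as markers of other retinal cells were counted in the 13 cells with a rod sum of 100 or more and in the other 127. The median number of cone genes at 1 FPKM or more was 2 in both. Gngt2, a cone transducin gamma subunit, was found in 9 of the 13 and 104 of the 127. Pde6h, a cone phosphodiesterase subunit, was found in 6 of the 13 and 89 of the 127. Present in most of the 127 cells, these genes of the cone list did not set the 13 cells apart. Gnb3 was found in 3 of 13 and 7 of 127, and Otx2, Pecam1 of endothelial cells and Sox9 of Müller glia in 2 of 13 and 2 of 127 each. Of the same cone list, the cone opsin gene Opn1mw and the cone arrestin gene Arr3 were at 0.0 in all 140 kept cells, and the cone transducin gene Gnat2 was below 1 FPKM in all. Gnb3, a G protein beta subunit of cones and ON bipolar cells, was at 2096, 1226 and 301 FPKM in the high-dose cells G5 of plate 1, G5 of plate 2 and G4 of plate 1 and below 1 in the other 10. Otx2, a homeobox gene of photoreceptors and bipolar cells, was at 422 FPKM in the high-dose cell F5 of plate 3 and 147 in G4 of plate 1. Each of the 13 cells held 0 to 2 of the 9 bipolar genes, 0 or 1 of the 6 amacrine genes and none of the 4 astrocyte genes at 1 FPKM or more.

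The low-dose cell D2 of plate 3, which held 483 FPKM of Prph2 and 7293 detected genes, was of mixed make-up, with 3 of 5 endothelial, 2 of 9 bipolar and 2 of 7 ganglion cell genes at 1 FPKM or more, among them Vsx1 at 115 FPKM. The high-dose cell G1 of plate 3 held the Müller glia gene Rlbp1 at 165 FPKM beside 197 of Gnat1 and 127 of Prph2. Crx, a photoreceptor homeobox gene picked after its values were seen, was at 834, 424 and 414 FPKM in the high-dose cells G5 of plate 2, F5 of plate 3 and G4 of plate 1 and at 7.54 FPKM or below in the other 10.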
